A study of Homo sapiens with 6 samples.

Results

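Glycosaminoglycans are the long sugar chains of the cell surface and extracellular matrix, and 39 genes that encode enzymes of their synthesis were examined here. The genes were taken by symbol from a table of 21293 genes and cover the linker region, the chondroitin and dermatan sulfate chains, the heparan sulfate chains, hyaluronan and the precursor enzyme UGDH. The RNA came from H2087-LCC cells, a human lung adenocarcinoma (LUAD) line that was selected in mice from H2087 for its capacity to persist as dormant metastases, where LCC stands for latency competent cancer cells. It was profiled as polyA RNA in 3 groups of 2 libraries. The groups were cells kept for 3 days with SB505124 (SB, an inhibitor of the type I TGFβ receptor kinase), cells given TGFβ for 3 days and cells given TGFβ for 7 days. The cells were a single selected population in culture, and no genotype other than that of this derivative was compared. SB libraries were taken at 3 days only, so that at 7 days TGFβ and time in culture cannot be told apart. The labels do not say whether the 2 libraries of a group came from separate cultures, whereas the study calls its replicates technical where it plots read counts of this experiment. The p-values therefore measure the spread between these libraries, which may hold no variation between cultures.

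Sulfated glycosaminoglycans are built on a core protein. A tetrasaccharide linker begins with xylose, and the chain then grows either as chondroitin sulfate, with N-acetylgalactosamine, or as heparan sulfate, with N-acetylglucosamine. Sulfotransferases and epimerases in the Golgi then write the sulfation pattern that decides which growth factors, chemokines and matrix proteins the chain can bind. Epimerization of glucuronate to iduronate turns chondroitin into dermatan sulfate. Hyaluronan differs in that it carries no sulfate or core protein and is extruded at the plasma membrane by the HAS enzymes. TGFβ is known as an inducer of proteoglycans and hyaluronan in many mesenchymal and epithelial cells.

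The values were counts normalized to library size by the authors, rounded to whole numbers, and summed to between 34306283 and 36340734 per library. The epithelial keratin gene KRT8 was between 33341 and 42692 in every library, and KRT19 between 3785 and 6809. KRT7 rose from 5860 and 6183 in SB to 15440 and 18905 at 3 days and 13979 and 11230 at 7 days. KRT18 fell from 47266 and 50793 in SB to 34714 and 31757 at 7 days. The transcription factor gene NKX2-1 stood at 2784 and 2908 in SB, 712 and 748 at 3 days and 853 and 857 at 7 days. The E-cadherin gene CDH1 stood at 371 and 635 in SB, 28 and 24 at 3 days and 10 and 9 at 7 days, and the surface protein gene EPCAM was lowest at 7 days, at 2988 and 3277. Markers of other cells were low: DCN, LUM, COL1A2 and THY1 of fibroblasts were at 0 to 5, VWF, CDH5 and CLDN5 of endothelium at 0 to 20 and PTPRC, CD3E, CD14 and LYZ of leukocytes at 0 to 8. LUM was at 0 in all libraries. PDGFRA (8 to 16), PECAM1 (36 to 67) and CD68 (4368 to 5113), which are less restricted, were higher. In bulk RNA, a change in the number of cells that express a gene and a change in RNA per cell cannot be told apart.

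Of the 39 enzyme genes, 34 had a mean of at least 10 and were tested. After 3 days of TGFβ, 7 of them rose and 2 fell against SB, where 14.9% of all 14395 genes tested rose and 14% fell. After 7 days, 17 rose and 4 fell against SB, beside 27.7% and 26.9% of all genes. Between 3 and 7 days of TGFβ, 9 rose and 2 fell, beside 17% and 16.2% of all genes. As shares of the 34, the rises were 20.6%, 50% and 26.5% in the order of these comparisons, and the falls were 5.88%, 11.8% and 5.88%. The falls were fewer with 1 library left out. This held at 3 days without SB replicate 2 or 3-day replicate 1, and at 7 days most of all without 7-day replicate 2. Between the times it held without any 1 of the 4 TGFβ libraries. In each of these fits fewer of all genes fell as well. With a correction for GC content and length, 11 enzymes rose and 4 fell at 3 days, and 4 fell between the times, where the shares of all genes were also larger: 19.2% rose and 21.6% fell at 3 days, and 22.6% fell between the times. The median log2 fold change of the 34 enzymes was 0.11 at 3 days and 0.35 at 7 days against SB, while that of all genes tested was -0.02 and -0.00081. The comparisons share libraries, since both use the same SB pair and the third uses the TGFβ libraries of the others. The test was the moderated test of limma on log2(value + 1), with Benjamini-Hochberg adjustment over all genes and a threshold of 0.05, and all fold changes below are on that scale.

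**Figure D1:**
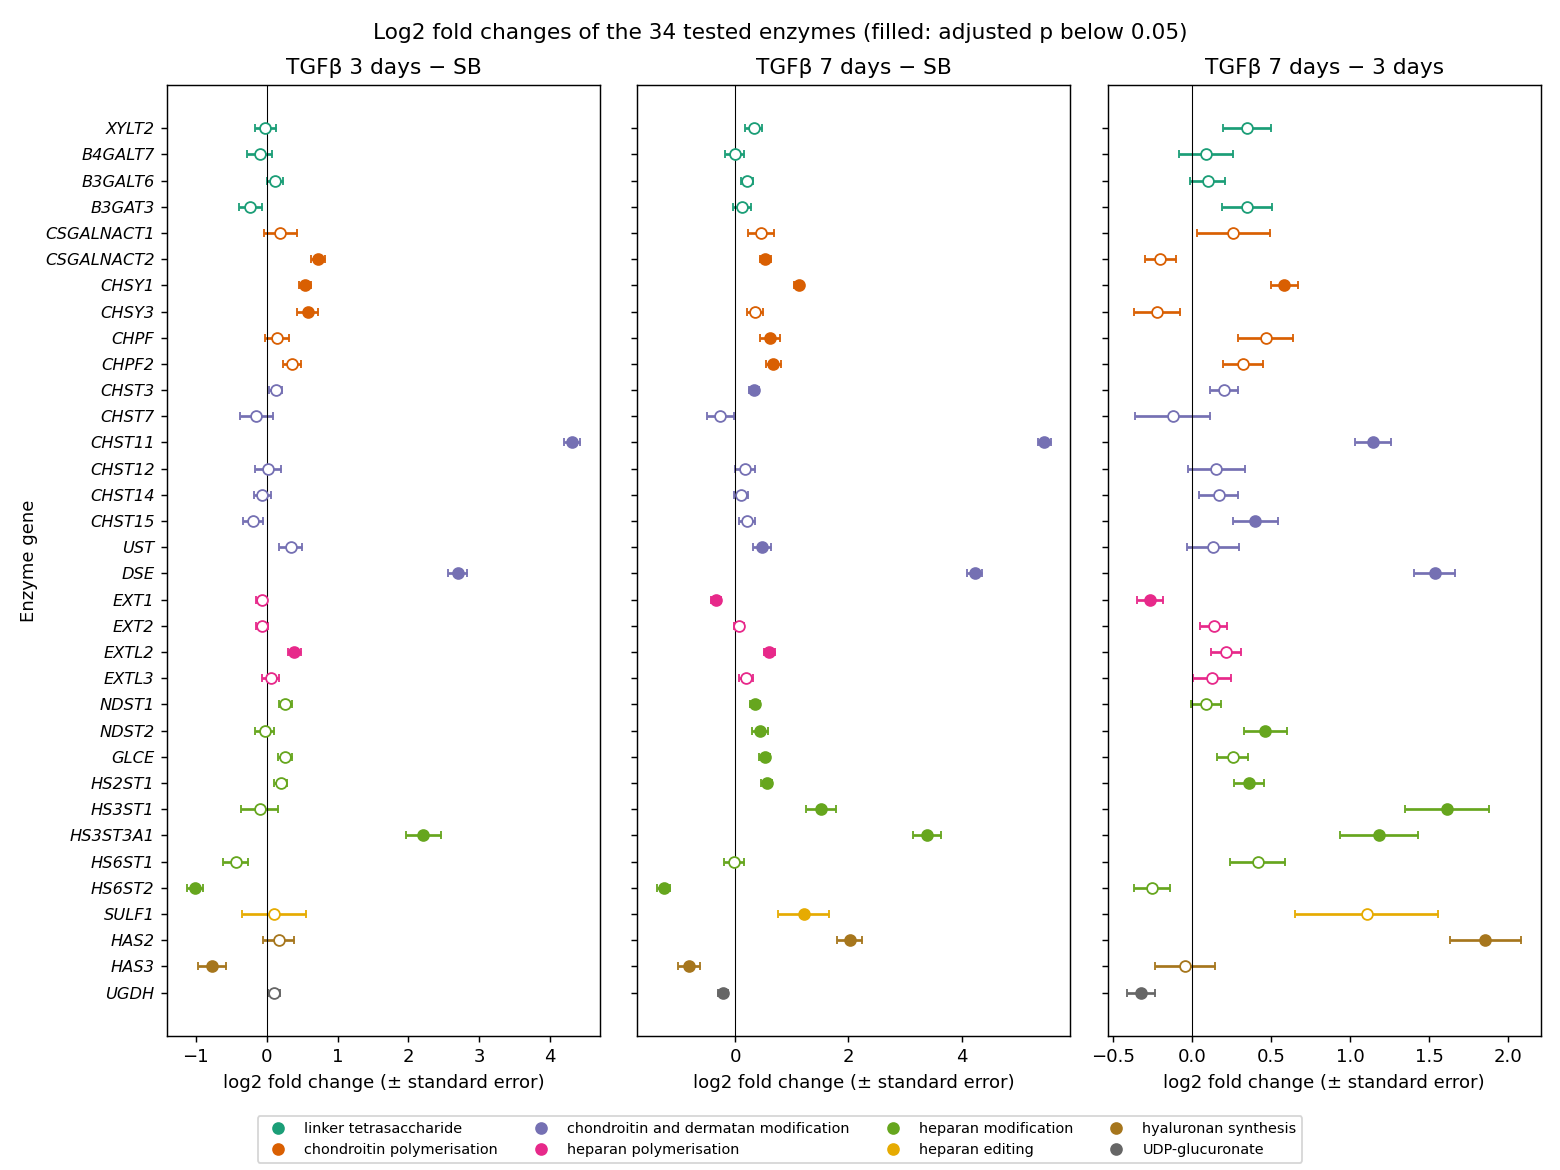
Log2 fold change of the 34 tested enzymes (rows, coloured by role) in the 3 comparisons (panels), with horizontal bars for the standard error and filled points for an adjusted p below 0.05. CHST11 and DSE lie farthest to the right in both comparisons with SB, at 4.31 and 2.70 after 3 days and 5.46 and 4.23 after 7 days, whereas most other enzymes lie near the zero line.

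The enzymes followed several time courses. The share of all genes that followed each was not computed, so the number of enzymes in each course is a description only. CHST11, DSE, HS3ST3A1 and CHSY1 were higher than SB at 3 days and higher again at 7 days, and were the 4 genes that passed the test in all 3 comparisons. HAS2, HS3ST1, HS2ST1 and NDST2 passed against SB at 7 days and between 3 and 7 days, but not at 3 days, although NDST2 and HS2ST1 lost the call between the times in some alternatives (HS2ST1 without 3-day replicate 2, adjusted p = 0.112, or 7-day replicate 2, adjusted p = 0.124, and NDST2 without 3-day replicate 1, adjusted p = 0.163, or either 7-day library, adjusted p = 0.136 and 0.0905). CSGALNACT2 and EXTL2 rose at both times against SB without passing between them. CHSY3 passed at 3 days only, but both its 7-day libraries also lay above SB. At 7 days it passed in some alternatives, the GC content and length correction among them. HS6ST2 and HAS3 were lower at both times. EXT1 and UGDH passed as lower at 7 days than in either other group, but both lost calls in some alternatives. UGDH against SB kept its call in 6 of 17 alternatives. CHPF, CHPF2, CHST3, UST, NDST1, GLCE and SULF1 passed as higher at 7 days against SB only, and CHST15 between the times only. A further 11 enzymes passed in no comparison, although 6 of them (XYLT2, B3GAT3, CSGALNACT1, EXT2, EXTL3 and HS6ST1) did so in at least 1 alternative.

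The promoters of CHST11, CHSY1 and HS3ST3A1, 3 of the 4 genes that rose at each step, are shown because these genes moved together. RefSeq gives each of them 1 start site and a window of 300 bases around it in GRCh38.p14, written 5′ to 3′ on the gene's strand. Capitals mark CAGAC or its reverse complement GTCTG, the core sequence bound by SMAD proteins, which carry the TGFβ signal to DNA. DSE has 4 such windows, and gene counts do not tell which start was used, so none is shown.
CHST11, chr12:104456698-104456997, plus strand: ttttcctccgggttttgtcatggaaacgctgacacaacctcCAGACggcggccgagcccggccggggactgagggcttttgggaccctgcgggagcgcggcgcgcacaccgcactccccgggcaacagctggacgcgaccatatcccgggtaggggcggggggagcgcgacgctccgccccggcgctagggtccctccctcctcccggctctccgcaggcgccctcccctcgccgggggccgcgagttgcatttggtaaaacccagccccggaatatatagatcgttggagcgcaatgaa
CHSY1, chr15:101251999-101252298, minus strand: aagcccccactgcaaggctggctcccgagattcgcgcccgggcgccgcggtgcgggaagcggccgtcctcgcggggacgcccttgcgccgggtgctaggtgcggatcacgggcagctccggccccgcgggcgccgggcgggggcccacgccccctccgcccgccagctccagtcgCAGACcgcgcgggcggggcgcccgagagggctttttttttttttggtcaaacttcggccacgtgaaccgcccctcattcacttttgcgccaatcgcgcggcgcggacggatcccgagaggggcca
HS3ST3A1, chr17:13601880-13602179, minus strand: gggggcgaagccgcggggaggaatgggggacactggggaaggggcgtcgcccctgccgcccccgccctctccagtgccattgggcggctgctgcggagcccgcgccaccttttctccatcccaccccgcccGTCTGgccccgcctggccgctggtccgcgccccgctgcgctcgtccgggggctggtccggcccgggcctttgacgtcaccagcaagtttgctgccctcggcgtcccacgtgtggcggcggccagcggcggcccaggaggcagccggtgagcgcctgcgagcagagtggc

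Each of the 3 windows held 1 CAGAC match on either strand and no match to TGANTCA, the AP-1 sequence. Across the 35116 RefSeq promoter windows of this length, CAGAC was found on either strand in 45.3% and TGANTCA in 7.71%. Among the 46 windows of the 34 enzymes with an entry, the shares were 41.3% (19 windows) and 6.52% (3 windows). No match in these 3 windows overlapped one of the other motif. A match of 5 letters describes the window and does not show that it is bound.

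The chondroitin and dermatan sulfate modifying enzymes held the genes that moved farthest. CHST11 encodes the 4-O-sulfotransferase of chondroitin, and its gene lies on chromosome 12 from 104849073 to 105155792 on the plus strand (GRCh37). Its normalized counts were 60 and 60 in SB, 1201 and 1221 after 3 days of TGFβ and 2688 and 2676 after 7 days. Each group lay far from the others, with no overlap. The log2 fold change was 4.31 ± 0.11 (SE, adjusted p = 4.76e-10) at 3 days and 5.46 (adjusted p = 1.72e-11) at 7 days against SB, and 1.15 (adjusted p = 3.97e-05) between them.

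DSE encodes dermatan sulfate epimerase, which converts glucuronate to iduronate in the chain, and lies on chromosome 6 from 116575336 to 116766024 on the plus strand. Its counts were 71 and 76 in SB, 499 and 464 at 3 days and 1377 and 1415 at 7 days, again without overlap between groups. The log2 fold change was 2.70 ± 0.13 (SE, adjusted p = 3.6e-08) at 3 days and 4.23 (adjusted p = 3.6e-10) at 7 days against SB, and 1.53 (adjusted p = 1.66e-05) between the 2 times. In the annotation, 10.3% of the exonic sequence of DSE is shared with other genes, among them TSPYL1 on the opposite strand. The library kit did not mark strand, so reads there cannot be assigned to either gene. TSPYL1 itself had counts of 2567 and 2428 in SB and 3513 and 3490 at 7 days, a log2 fold change of 0.49.

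The other 6 modifying enzymes moved by less than 0.5 on the log2 scale. CHST3, a chondroitin 6-O-sulfotransferase, rose by 0.33 in log2 terms between SB and 7 days (adjusted p = 0.00819), from 2527 and 2428 to 3247 and 2991, a call lost without 7-day replicate 1 (adjusted p = 0.0987) and with a correction for GC content and length (0.16, adjusted p = 0.0724). UST, which adds sulfate at the 2-O position of uronic acid, rose by 0.47 at 7 days (adjusted p = 0.0277), and the call was lost without SB replicate 1 (adjusted p = 0.103) or 7-day replicate 2 (adjusted p = 0.218). CHST15, which adds a 6-O-sulfate to residues already sulfated at the 4-O position, rose by 0.40 between 3 and 7 days (adjusted p = 0.0487) and did not pass against SB, where its 2 libraries were far apart at 1841 and 2681. Its call was lost without any 1 of the 4 TGFβ libraries (adjusted p = 0.0876 to 0.186). CHST12, the other chondroitin 4-O-sulfotransferase of the list, had log2 fold changes of 0.02 and 0.18 against SB, with counts of 156 to 215 in all libraries. CHST14, the dermatan 4-O-sulfotransferase, had -0.06 and 0.11, and CHST7, another chondroitin 6-O-sulfotransferase, had -0.14 and -0.26, none past the test.

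Levels were also set side by side per kilobase of the canonical GENCODE transcript, a scale on which genes of different length can be compared. Under SB, CHST11 and DSE had mean levels of 10.5 and 6.92 normalized counts per kilobase, far under CHST15 (470), CHST3 (357) and CHST14 (319). At 7 days CHST11 stood at 468 per kilobase, among CHST15 (534), CHST3 (450) and CHST14 (343), and DSE at 131. As a share of the per-kilobase sum over the 8 enzymes, CHST11 made up 0.88% and 0.8% of the SB libraries, 14.8% and 14.3% at 3 days, and 23% and 23.3% at 7 days. The level of CHST12, 10.8 per kilobase in SB, rests on a canonical transcript of 15.985 kilobases and would be higher on a shorter one. The same holds for DSE, whose canonical transcript has 10.621 kilobases.

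**Figure D2:**
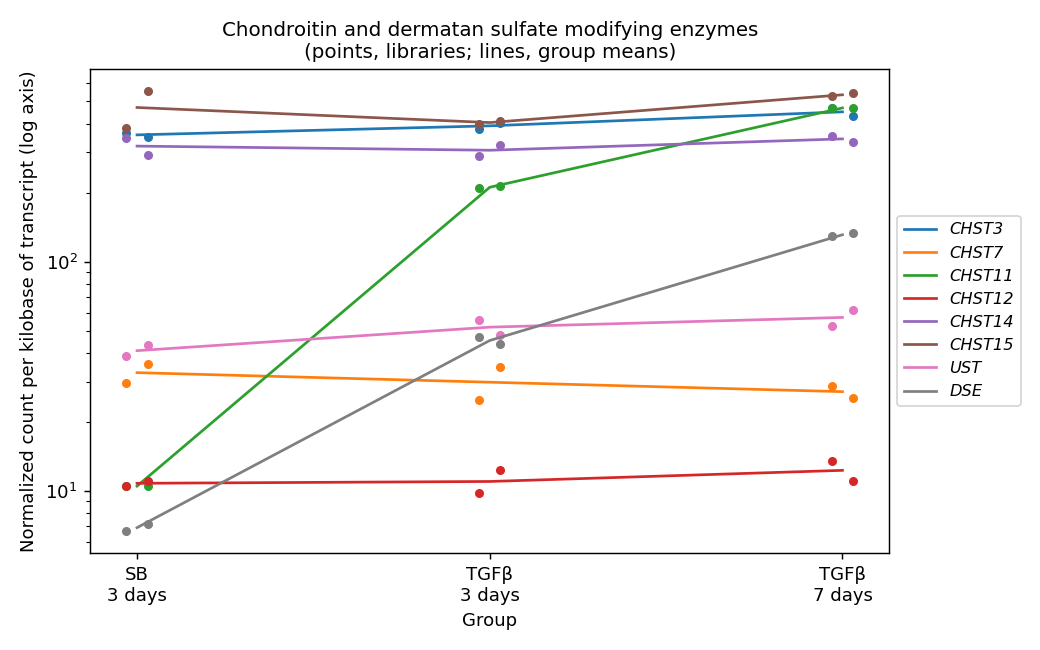
Normalized count per kilobase of transcript (log axis) of the 8 chondroitin and dermatan sulfate modifying enzymes in the 3 groups, with a point for each library and a line through the group means. CHST11 climbs from 10.5 in SB to 468 at 7 days, into the range of CHST3, CHST14 and CHST15, and DSE from 6.92 to 131, while the lines of the other 6 enzymes stay nearly level.

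The chondroitin chain itself is built by 6 enzymes, 3 of which rose at 3 days and 4 at 7 days against SB, with none lower. The rises were 50% and 66.7% of the 6, beside 14.9% and 27.7% of all genes tested, of which 14% and 26.9% fell. CHSY1, the chondroitin synthase that carries both transferase activities of the growing chain, lies on chromosome 15 from 101715932 to 101792253 on the minus strand. It had counts of 3093 and 3016 in SB, 4631 and 4231 at 3 days and 6598 and 6694 at 7 days. The groups did not overlap, and the log2 fold change was 0.54 ± 0.08 (SE, adjusted p = 0.000509) at 3 days, 1.12 (adjusted p = 5.88e-07) at 7 days and 0.59 (adjusted p = 0.000459) between the times.

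CSGALNACT2, which adds the residue that commits the linker to chondroitin, was highest at 3 days: 2174 and 1890 in SB, 3506 and 3213 at 3 days, and 2865 and 2988 at 7 days. Its log2 fold change against SB was 0.73 (adjusted p = 0.00016) and then 0.53 (adjusted p = 0.000718), and the 2 TGFβ times differed by -0.20 (adjusted p = 0.141). CHSY3, another synthase, followed the same order with 191 and 202, 305 and 282, and 248 and 255, and passed at 3 days only (0.58, adjusted p = 0.011, against 0.35, adjusted p = 0.0563, at 7 days), a call lost without 3-day replicate 1 (adjusted p = 0.0954). CHPF and CHPF2, the polymerizing factors that act with CHSY1, rose by 0.61 (adjusted p = 0.0102) and 0.68 (adjusted p = 0.000724) at 7 days. The call of CHPF was lost without SB replicate 1 (adjusted p = 0.078) or 7-day replicate 1 (adjusted p = 0.113), and 22.1% of the exonic sequence of CHPF2 is shared with other genes, SMARCD3 on the opposite strand among them. CSGALNACT1, with the same activity as CSGALNACT2, had counts of 47 to 68 and passed in no comparison. Summed per kilobase over the 6 enzymes, the level was 1940 and 1900 in SB, 2690 and 2760 at 3 days, and 3420 and 3230 at 7 days.

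None of the 4 tested linker enzymes passed in any comparison, but B3GAT3 passed at 7 days against SB and between the times with the GC content and length correction, and between the times without 3-day replicate 2, and XYLT2 passed at 7 days against SB without 7-day replicate 2. Of all genes tested, 29% passed at 3 days against SB, 54.5% at 7 days against SB and 33.2% between the times. XYLT2, a xylosyltransferase that starts the chain, had counts of 438 and 417 in SB, 397 and 448 at 3 days and 620 and 467 at 7 days. B4GALT7 and B3GALT6, which add the galactoses, ranged from 446 to 637 and from 556 to 653 over all libraries. B3GAT3, which adds the glucuronate, ranged from 416 to 684. The other xylosyltransferase, XYLT1, was too low to test: it was listed at 0 in both SB libraries, at 0 and 5 at 3 days and at 19 and 18 at 7 days. Set against a floor of 3 counts per library, its 7-day mean of 18.5 was at least 6.17-fold higher than in SB, although it stayed at 1.86 per kilobase beside 155 for XYLT2.

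The polymerases of heparan sulfate moved little. EXT1, which with EXT2 forms the elongating complex, had counts of 6167 and 5773 in SB, 5719 and 5628 at 3 days, and 4850 and 4597 at 7 days. The 7-day log2 difference was -0.34 from SB (adjusted p = 0.00424) and -0.26 from 3 days (adjusted p = 0.0275). Without 7-day replicate 2 the former was lost (adjusted p = 0.0597), and the latter was lost without any 1 of the 4 TGFβ libraries (adjusted p = 0.0924 to 0.207). With the GC content and length correction, the difference from SB at 7 days was -0.51 (adjusted p = 0.000489). EXT2 had counts of 3151 to 3589 in all libraries and did not pass. EXTL2, which can cap a linker with a single residue, rose by 0.39 (adjusted p = 0.00859) at 3 days and 0.61 (adjusted p = 0.000204) at 7 days, from 1630 and 1659 to 2421 and 2593, with the 3-day call lost without 3-day replicate 1 (adjusted p = 0.1). EXTL3, which starts the heparan chain, did not pass (1526 to 2012), and EXTL1, with counts of 2 to 6, was too low to test.

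Among the heparan sulfate modifying enzymes, 6 of 8 tested rose at 7 days against SB and 1 fell, whereas 1 rose and 1 fell at 3 days. At 7 days these were 75% and 12.5%, beside 27.7% and 26.9% of all genes tested. At 3 days they were 12.5% each, near the 14.9% and 14% of all genes. HS3ST3A1, a 3-O-sulfotransferase, lies on chromosome 17 from 13397349 to 13505246 on the minus strand. Its counts were 12 and 17 in SB, 74 and 66 at 3 days and 158 and 162 at 7 days. The groups did not overlap, and the log2 fold change was 2.21 ± 0.25 (SE, adjusted p = 3.87e-05) at 3 days, 3.40 (adjusted p = 4.83e-07) at 7 days and 1.18 (adjusted p = 0.00409) between them. Its close paralog HS3ST3B1 was listed at 0 and 0, 8 and 6, and 21 and 16, and its 7-day mean of 18.5 was at least 6.17-fold above a floor of 3 counts per library. The sulfotransferase domains of this pair are nearly identical, and only reads that mapped uniquely were counted. Reads that map to both genes would be missing from both counts, so these levels are uncertain.

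HS3ST1, the 3-O-sulfotransferase known for making the antithrombin-binding site, lies on chromosome 4 from 11394774 to 11431188 on the minus strand. Its counts were 85 and 166 in SB, 100 and 123 at 3 days, and 321 and 364 at 7 days. The SB and 3-day libraries overlapped and both 7-day libraries lay above them. The log2 fold change against SB was -0.10 ± 0.26 (SE, adjusted p = 0.815) at 3 days and 1.52 (adjusted p = 0.000474) at 7 days, and 1.61 (adjusted p = 0.00107) between the times. The 3-day value turned with the SB library left out, being -0.58 without SB replicate 1 (adjusted p = 0.0568) and 0.38 without SB replicate 2 (adjusted p = 0.199). HS3ST2, another member of this group, had at most 1 count in a library.

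HS6ST2, a 6-O-sulfotransferase, was the modifying enzyme that fell. The gene lies on the X chromosome from 131760043 to 132095423 on the minus strand. It had counts of 1754 and 2098 in SB, 986 and 914 at 3 days and 775 and 821 at 7 days. Every TGFβ library lay below both SB libraries, with a log2 fold change of -1.01 ± 0.11 (SE, adjusted p = 3.94e-05) at 3 days and -1.26 (adjusted p = 2.89e-06) at 7 days. The difference between the times was -0.25 (adjusted p = 0.112). HS6ST1, of the same activity, had -0.44 (adjusted p = 0.0841) at 3 days and -0.02 (adjusted p = 0.939) at 7 days, with counts of 189 and 185, 127 and 150, and 203 and 168. Per kilobase, the mean of HS6ST2 went from 462 under SB to 191 after 7 days and HS6ST1 from 44.3 to 43.9.

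The enzymes that act earlier in the modification of heparan rose by less. NDST1 and NDST2, which replace the acetyl group by sulfate, rose by 0.35 (adjusted p = 0.00716) and 0.44 (adjusted p = 0.0178) at 7 days against SB. The value of NDST1 was 0.15 with the GC content and length correction (adjusted p = 0.0493), its call was lost without 7-day replicate 1 (adjusted p = 0.111), and that of NDST2 without SB replicate 1 (adjusted p = 0.0937) or either 7-day library (adjusted p = 0.109 and 0.0645). In the annotation 82.9% of the exonic sequence of NDST2 is shared with another gene on the same strand, so its count is uncertain. The annotation release behind the counts is not given, so the effect on the count is unknown. GLCE, the heparan epimerase, rose by 0.52 (adjusted p = 0.00081), and HS2ST1, the 2-O-sulfotransferase that acts on iduronate, rose by 0.56 (adjusted p = 0.000364), from 2895 and 3141 to 4279 and 4604. The extracellular sulfatases that edit finished chains were scarce. SULF1 (chromosome 8, 70378859 to 70573150, plus strand) had counts of 8 and 12, 7 and 16, and 29 and 20, and a log2 fold change of 0.11 ± 0.45 (SE, adjusted p = 0.885) at 3 days, 1.21 (adjusted p = 0.0388) at 7 days and 1.11 (adjusted p = 0.0803) between them. Its call at 7 days was lost in 7 alternatives, among them the omission of SB replicate 1 (adjusted p = 0.159) and of either 7-day library (adjusted p = 0.207 and 0.0595). SULF2, at 1 to 10 counts, was not tested.

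**Figure D3:**
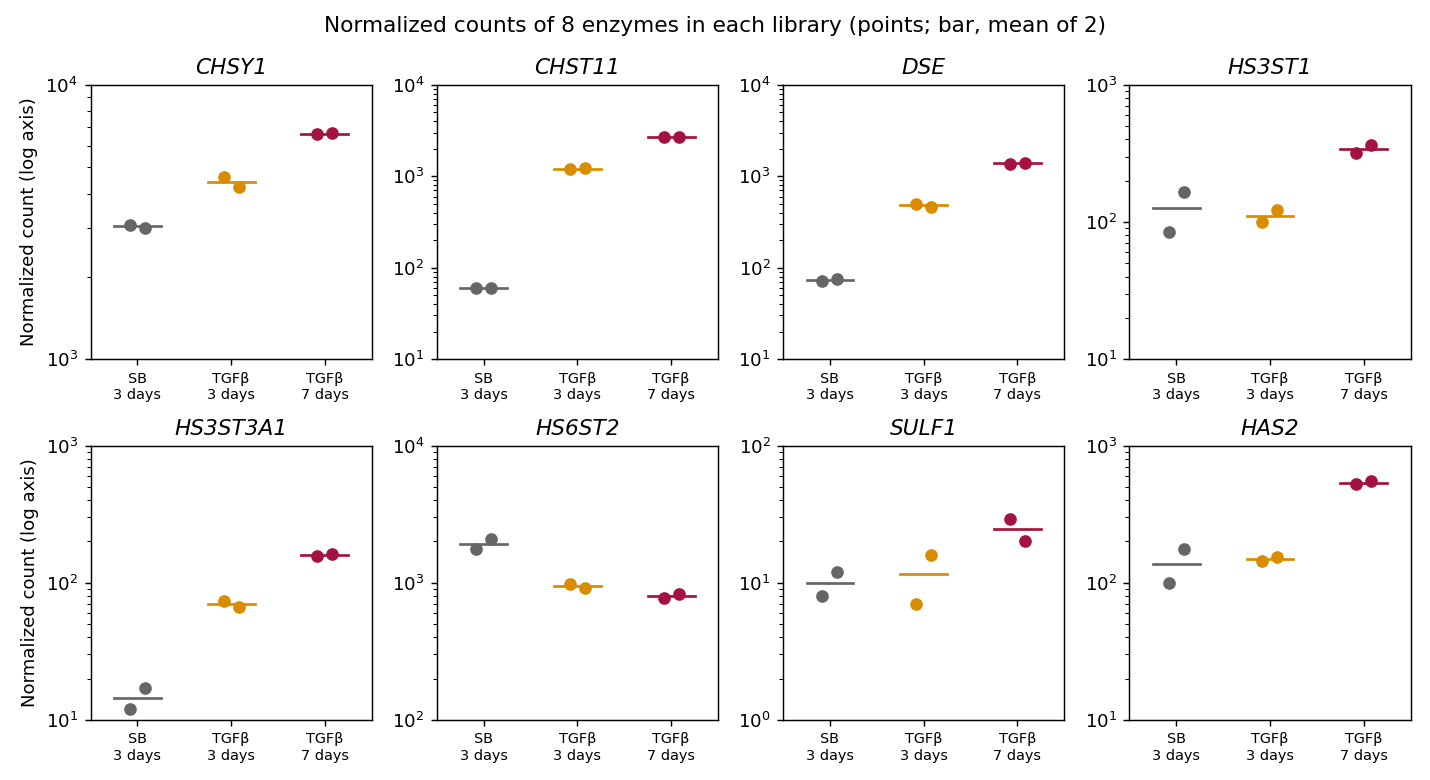
Normalized counts (log axis, with a range of its own in each panel) of the 8 enzymes that passed the test with a log2 fold change of at least 1 in any comparison, with a point for each library and a bar at the mean of 2. CHSY1, CHST11, DSE and HS3ST3A1 step up at each time, HS3ST1 and HAS2 rise in the 7-day pair, HS6ST2 steps down, and SULF1 stays under 30 counts.

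The hyaluronan synthases moved in opposite directions. HAS2, an enzyme that makes long hyaluronan chains and is often induced in mesenchymal transitions, lies on chromosome 8 from 122624356 to 122653680 on the minus strand. Its counts were 99 and 175 in SB, 143 and 153 at 3 days and 522 and 554 at 7 days. The 3-day values lay between the SB values, and both 7-day values lay above all others. The log2 fold change was 0.17 ± 0.23 (SE, adjusted p = 0.623) at 3 days, 2.02 (adjusted p = 1.63e-05) at 7 days and 1.86 (adjusted p = 0.00016) between the times. Without SB replicate 2, HAS2 also passed at 3 days, at 0.57 (adjusted p = 0.0307), and without SB replicate 1 the 3-day value was -0.24 (adjusted p = 0.294). The antisense gene HAS2-AS1, which overlaps it (5.92% of the exonic sequence of HAS2 is shared), had counts of 31 and 32, 37 and 16, and 99 and 109, and the unstranded kit cannot separate the reads of the overlap.

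HAS3, the other synthase of the list, had counts of 153 and 198 in SB, 100 and 103 at 3 days and 100 and 97 at 7 days. In log2 terms it fell by 0.77 (adjusted p = 0.0102) at 3 days and by 0.82 (adjusted p = 0.00353) at 7 days, with no difference detected between the times (-0.04, adjusted p = 0.886). Its call at 3 days was lost without SB replicate 2 (adjusted p = 0.0583) or 3-day replicate 1 (adjusted p = 0.0573). Per kilobase of transcript, HAS2 and HAS3 were at 32.3 and 41.9 in SB, 34.9 and 24.2 at 3 days and 127 and 23.5 at 7 days. HAS2 made up 39% and 46.6% of their sum in SB, 58.6% and 59.5% at 3 days, and 83.8% and 85% at 7 days. UGDH, which makes the UDP-glucuronate that all these chains use, had counts of 3746 and 3497, 3988 and 3766, and 3018 and 3195. It was lower at 7 days than in SB by -0.22 (adjusted p = 0.0486) and lower than at 3 days by -0.32 (adjusted p = 0.0157). The first of these calls was lost without any 1 library other than SB replicate 2. It was also lost with no filter on low values, under some other scalings and without the limma trend. The same held with only the 4 libraries compared and with the replicate block. The second call was lost without 3-day replicate 1 or either 7-day library, and without the limma trend.

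The 2 libraries of a TGFβ group differed with the GC content of the transcript, and this touched a subset of the enzymes. For the 9 tested enzymes with a GC content of at least 60% (XYLT2, B4GALT7, B3GALT6, B3GAT3, CHPF, CHPF2, CHST7, CHST14 and HS6ST1), the median log2 difference of library 2 from library 1 came to 0.0103 for SB, 0.303 for the 3-day pair and -0.272 for the 7-day pair. For the 10 enzymes below 45% it was 0.0611, -0.107 and 0.0826. Over the 34 enzymes, the difference correlated with GC content with a Pearson r of -0.19 in SB, 0.47 at 3 days and -0.64 at 7 days, where all points share the same pair of libraries. Over 13880 genes r was 0.17, 0.54 and -0.48, so the TGFβ pairs differed with GC content in the table at large. Without any correction 0, 2 and 0 of the 9 GC-rich enzymes passed in the 3 comparisons, and 3 passed in each after a correction for GC content and length that was added after the data were seen. Among the other 25, the counts were 9, 19 and 11 before and 12, 18 and 14 after it. The correction raised the calls of all genes as well: among genes of at least 60% GC, the share that passed was 27.5%, 49.3% and 27.2% before and 37.7%, 58.4% and 40.3% after it, and among the others 29.6%, 56.1% and 34.8% before and 41.4%, 63.5% and 46.6% after it.

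**Figure D4:**
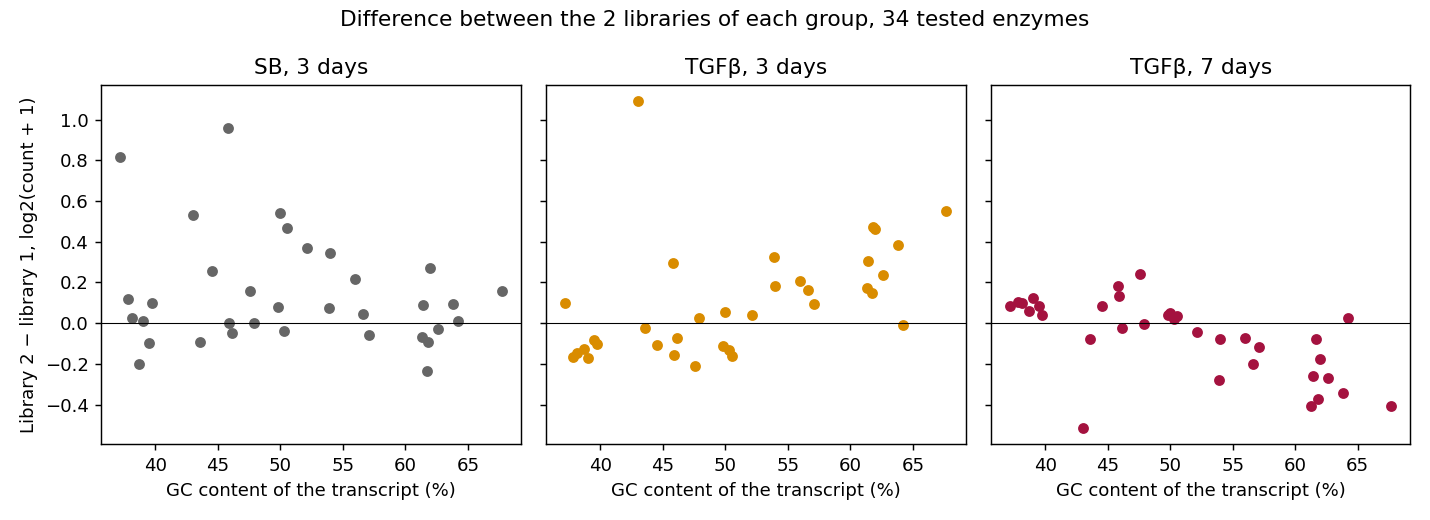
Difference between the 2 libraries of a group, as library 2 minus library 1 of log2(count + 1), against the GC content of the transcript in percent for the 34 tested enzymes (points), 1 panel for each group. The points tilt upward at 3 days of TGFβ (r = 0.47) and downward at 7 days (r = -0.64), with the 9 enzymes of at least 60% GC at a median of 0.303 and -0.272.

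The genes that supply the enzymes were looked at as a separate list of 21 genes for nucleotide sugars, sulfate activation, Golgi transport and linker phosphorylation. Of these, 8 rose and 1 fell at 3 days against SB, 12 rose and 2 fell at 7 days, and 5 rose and 3 fell between the times. As shares, 38.1% rose and 4.76% fell at 3 days beside 14.9% and 14% of all genes, 57.1% and 9.52% at 7 days beside 27.7% and 26.9%, and 23.8% and 14.3% between the times beside 17% and 16.2%. GFPT2, an enzyme that opens the hexosamine pathway from which the amino sugars come, had counts of 956 and 1039, 4232 and 4357, and 7506 and 7101, with a log2 fold change of 2.11 (adjusted p = 1.02e-08) and 2.87 (adjusted p = 3.42e-10) against SB. Its paralog GFPT1, outside the size set for naming and given for contrast, fell by 0.44 at 7 days (adjusted p = 0.00103), from 12546 and 11940 to 8718 and 9340. GNPNAT1, the acetyltransferase of that pathway, was highest at 3 days, with 7022 and 5859, 14269 and 13298, and 7069 and 7469 (1.10, adjusted p = 4.96e-06, at 3 days, 0.18, adjusted p = 0.135, at 7 days, and -0.92, adjusted p = 6.02e-05, between the times).

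Genes of sulfate supply were among those that rose. The sulfate transporter SLC26A2 had counts of 2398 and 2972 in SB, 7013 and 6451 at 3 days and 5963 and 6322 at 7 days, a log2 fold change of 1.33 (adjusted p = 2.16e-06) and 1.20 (adjusted p = 2.38e-06). PAPSS2, which makes the sulfate donor PAPS, had 657 and 641, 1163 and 1112, and 1501 and 1511, a log2 fold change of 0.81 (adjusted p = 8.22e-05) and 1.21 (adjusted p = 1.28e-06). PXYLP1, the phosphatase that removes phosphate from the xylose of the linker, changed in opposite directions. It fell by 0.76 at 3 days (adjusted p = 0.00917) and rose by 0.66 at 7 days (adjusted p = 0.00955), with counts of 228 and 330, 163 and 161, and 398 and 473.

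Isoenzymes outside the 39 were mostly silent. Of 13 listed, HS3ST6 was not analysed here, 3 could be tested and the other 9 had at most 7 counts in any library. HS6ST3, a further heparan 6-O-sulfotransferase, fell with HS6ST2: its counts were 529 and 433 in SB, 118 and 107 at 3 days and 14 and 16 at 7 days, a log2 fold change of -2.08 (adjusted p = 1.28e-05) and -4.91 (adjusted p = 4.35e-09) against SB and of -2.83 (adjusted p = 6.09e-06) between the times. Because only 3 could be tested, the others are named although their means were too low for the naming rule. The glucuronyltransferase B3GAT1 was at 31 and 23, 8 and 7, and 3 and 2, and fell by 3.00 at 7 days (adjusted p = 0.000145). NDST3, an N-deacetylase and N-sulfotransferase, was at 9 and 14, 22 and 13, and 37 and 53, and rose by 1.89 at 7 days (adjusted p = 0.00136).

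**Figure D5:**
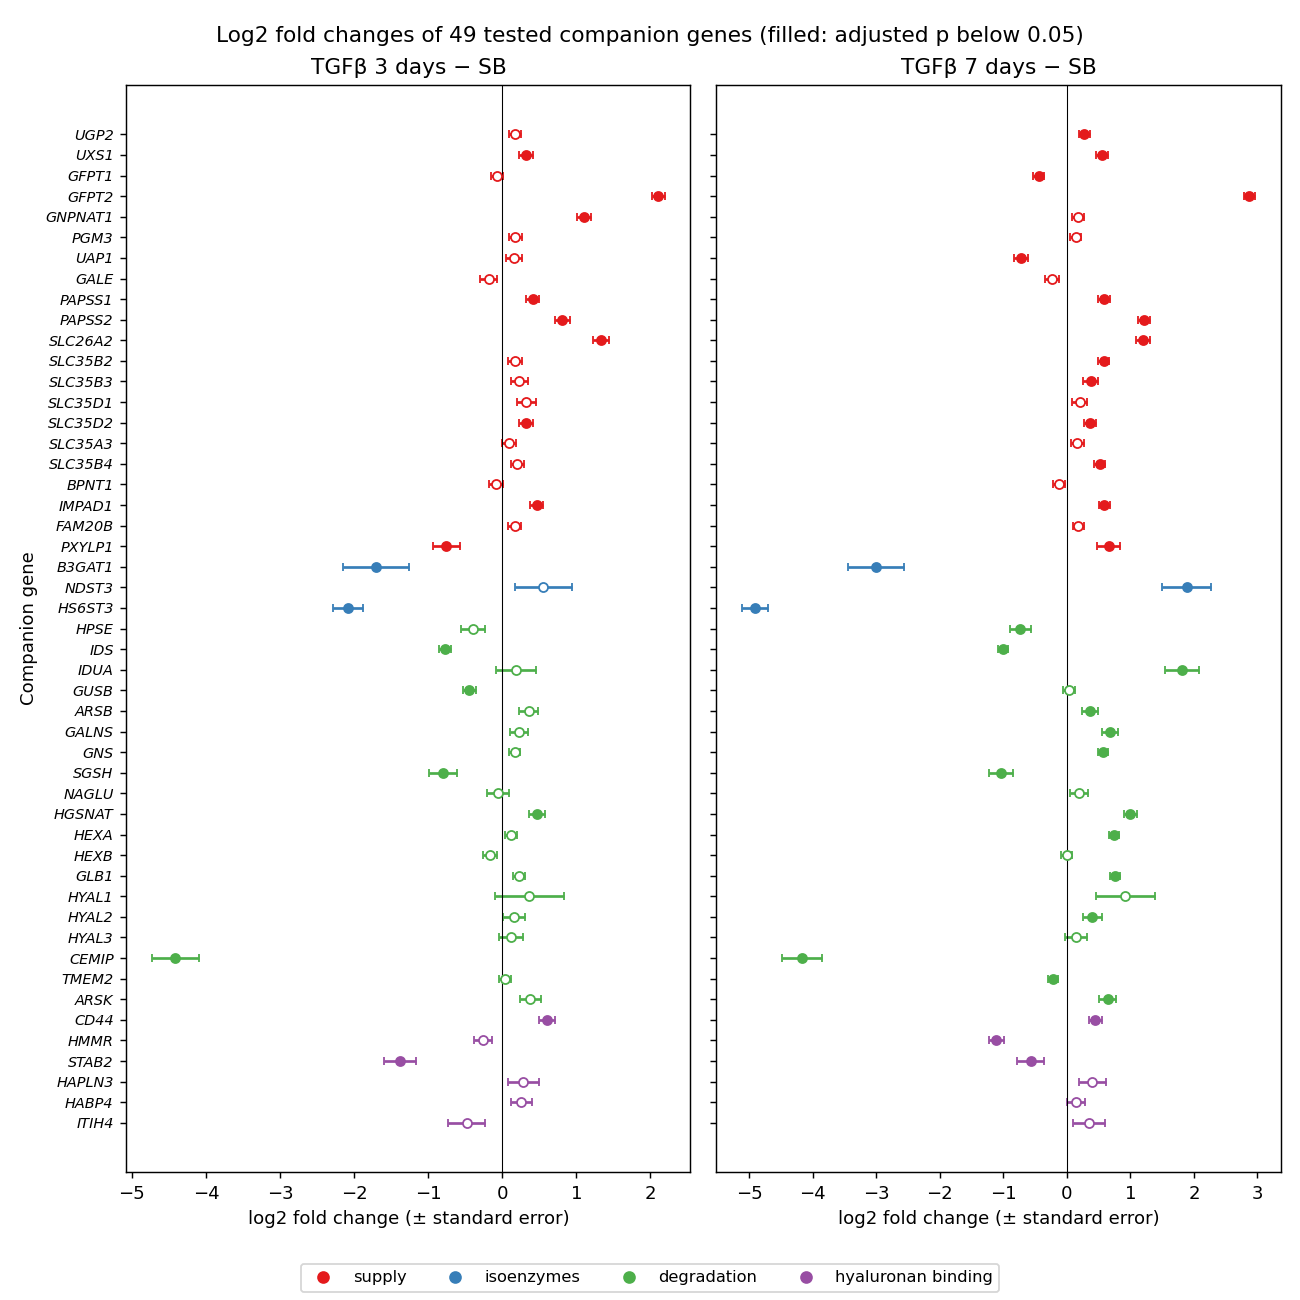
Log2 fold change (with standard error) of 49 tested genes that supply, duplicate, degrade or bind glycosaminoglycans, at 3 days (left) and 7 days (right) of TGFβ against SB, with filled points for an adjusted p below 0.05. GFPT2 lies farthest to the right at both times, at 2.11 and 2.87, and HS6ST3 and CEMIP lie farthest to the left, at -4.91 and -4.16 after 7 days.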

How the data were processed

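The authors aligned the read pairs with STAR to hg19, counted those that mapped uniquely per gene with HTSeq 0.6.1p1 and normalized the counts to library size, with FastQC 0.11.5 and DESeq2 3.4 named in the submitters' processing notes. The annotation release is not given in the sources used here. The deposited values are whole numbers, treated here as a score because they are normalized counts rounded by the authors and not raw reads. On log2(value + 1), limma 3.58.1 (R 4.3.3) was run for 14395 genes whose mean reached 10 (group as the only term, 6 libraries, 3 residual degrees of freedom, empirical Bayes with a trend, Benjamini-Hochberg adjustment in each of 3 comparisons), after a test on simulated data. All genes were fitted and the enzymes' values were read from that fit. Every enzyme is named, with the value in each library for those past the threshold of 0.05 and a log2 fold change of at least 1 and for HAS2. Genes of the other lists are named past the same limits with a mean of at least 50. The enzymes, lists and tests were chosen with earlier results of these data known. Positions, lengths, overlaps and GC content came from GENCODE on GRCh37, promoters from RefSeq. All 39 symbols were current. Between libraries of a group, the median squared difference was 7.35 to 11 times the variance expected from counting over 11389 genes, so no pair was treated as a single library deposited again. This does not show that the cultures were separate. Depth in reads is not given by normalized values, and no counting interval is printed. Alternatives were the pseudocount, the filter, 3 other scalings, limma without the trend, only the 4 libraries compared, a replicate block and the omission of each library. The correction for GC content and length (loess, span 0.5, 13880 genes) was added after the data were seen. One marker gene of the lists is not reported here.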

Additional observations from a re-analysis of the deposited data

Results flagged for a closer look

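The 7-day against 3-day contrast of limma with Benjamini-Hochberg adjustment tested whether the response to TGFβ relative to SB differed between the 2 time points. It differed for 11 enzymes, 32.4% of the 34 tested, near the 33.2% of all genes tested. Since both responses use the same SB libraries, this difference equals that between the 7-day and the 3-day libraries. It was positive for CHSY1 (0.59), CHST11 (1.15), CHST15 (0.40), DSE (1.53), NDST2 (0.47), HS2ST1 (0.36), HS3ST1 (1.61), HS3ST3A1 (1.18) and HAS2 (1.86), and negative for EXT1 (-0.26) and UGDH (-0.32), all on the log2 scale. For HAS2 and HS3ST1 the 3-day libraries overlapped those of SB, whereas CHST11, DSE, HS3ST3A1 and CHSY1 had already risen at 3 days. CHST15, EXT1, NDST2, HS2ST1 and UGDH lost this call in at least 1 alternative. No group held 4 libraries or more, so no library could be tested for standing apart from its group.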

How the results depend on the processing

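Of 41 results in which an enzyme passed the test, 25 kept their direction and call in every alternative and 16 lost the call in at least 1, the largest of these being SULF1 at 7 days (1.21). The number of enzymes that rose at 3 days against SB went from 7 to 11 with the GC content and length correction, and the number that fell from 2 to 4. Between 3 and 7 days, the number that fell (2) became 4 with that correction, 0 without the limma trend and 1 with the replicate block. Of all genes, 16.2% fell in the main fit and 22.6%, 9.8% and 14.7% in these 3 settings. Leaving out 1 library at a time, so that a group held 1 library, also moved the numbers of enzymes that rose and fell. The numbers of all genes that rose and fell moved as well. Without the limma trend the rises between the times went from 9 to 6, beside 17% and 11.9% of all genes. The fewest falls between the times came without 3-day replicate 1 or without either 7-day replicate. In these fits fewer of all genes fell as well. With the replicate block, 8 rose and 2 fell at 3 days, 17 and 3 at 7 days, and 10 and 1 between the times. Of all genes, 14.1% rose and 13.3% fell at 3 days, 26.5% and 25.9% at 7 days, and 16.4% and 14.7% between the times. Over all genes tested, the differences of library 2 from library 1 correlated at 0.14 (SB with 3 days), -0.1 (SB with 7 days) and -0.292 (3 with 7 days). The 2 TGFβ pairs differed with GC content in opposite directions. These values therefore cannot tell whether libraries of the same number belong together. Without 1 library at a time, HS3ST1 at 3 days against SB ranged from -0.58 to 0.38 and was positive without SB replicate 2 (0.38) or 3-day replicate 1 (0.05). SULF1 ranged from -0.44 to 0.65 and was negative without SB replicate 1 (-0.16) or 3-day replicate 2 (-0.44), and HAS2 ranged from -0.24 to 0.57, with -0.24 without SB replicate 1. Without SB replicate 2, HAS2 passed at 3 days. The causes were not tested. With no filter on low values, HS3ST3B1 passed at 3 and 7 days against SB and XYLT1 at 7 days. With 2 libraries a group and no read depth, small changes are less certain.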

Other observations

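Genes for the breakdown of glycosaminoglycans moved both ways. Of 20 listed, 19 were tested: 1 rose and 4 fell at 3 days against SB, 9 rose and 5 fell at 7 days, and 7 rose and 2 fell between the times. As shares, 5.26% rose and 21.1% fell at 3 days beside 14.9% and 14% of all genes tested, 47.4% and 26.3% at 7 days beside 27.7% and 26.9%, and 36.8% and 10.5% between the times beside 17% and 16.2%, so that the falls at 7 days were at the share of all genes. IDS, the lysosomal iduronate sulfatase, had counts of 61917 and 55826 in SB, 35071 and 33980 at 3 days and 28657 and 29876 at 7 days, and fell by 0.77 (adjusted p = 2.44e-05) and 1.01 (adjusted p = 1.14e-06) on the log2 scale. SGSH, the heparan N-sulfatase, fell by 0.80 (adjusted p = 0.00851) and 1.04 (adjusted p = 0.000736). IDUA, the iduronidase that acts after IDS, had 51 and 71, 54 and 87, and 245 and 185, with a log2 fold change of 0.19 (adjusted p = 0.647) and 1.81 (adjusted p = 0.000147). HGSNAT, the lysosomal acetyltransferase of heparan breakdown, rose from 618 and 591 to 828 and 842 (adjusted p = 0.00554) and then 1197 and 1226 (adjusted p = 9.22e-06 against SB).

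CEMIP, a hyaluronan-degrading protein of the cell surface, had counts of 1003 and 2306 in SB, 57 and 87 at 3 days and 84 and 84 at 7 days. Against SB the log2 fold change of CEMIP was -4.41 (adjusted p = 9.45e-07) at 3 days and -4.16 (adjusted p = 6.66e-07) at 7 days, and every TGFβ library lay below both SB libraries, which themselves were far apart. Of 12 genes for hyaluronan-binding proteins, 6 were tested. At 3 days 1 rose and 1 fell, at 7 days 1 rose and 2 fell, and between the times 2 rose and 1 fell. As shares, 16.7% rose and 16.7% fell at 3 days beside 14.9% and 14% of all genes tested. At 7 days these were 16.7% and 33.3% beside 27.7% and 26.9%, and between the times 33.3% and 16.7% beside 17% and 16.2%. Each share rests on 1 or 2 genes. The gene that rose at both times was CD44, the main hyaluronan receptor, which is below the size set for naming and is given because of these small counts: it rose by 0.60 (adjusted p = 0.00104) and 0.45 (adjusted p = 0.00325), with 21533 and 17337 in SB, 30932 and 27810 at 3 days and 25677 and 27090 at 7 days. HMMR, which also serves in mitosis, fell by 1.11 at 7 days (adjusted p = 1.12e-05), from 4915 and 3851 to 1907 and 2133. STAB2, a scavenger receptor for hyaluronan, had 155 and 136, 63 and 48, and 90 and 106, and fell by 1.38 (adjusted p = 0.000492) and 0.57 (adjusted p = 0.0426) against SB. No explanation was tested for any of these values.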
